A study of Arabidopsis thaliana with 6 samples.

Results

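The autophagy (ATG) genes described here were the 8 genes whose symbol in the array's platform annotation begins with ATG and a digit: ATG3, ATG8B, ATG8C, ATG8D, ATG8E, ATG8F, ATG8G and ATG8H. Each had 1 probe set (the group of probes that reports a transcript), and all 8 lay at or above 3.56 on the log2 scale, the 40th percentile of the table, in at least 2 of 6 arrays. They are 8 of 7806 genes named alone on a probe set above that filter and of 13350 such genes in all. Of 22746 probe sets kept after control probe sets were left out, named or not, 14520 passed the filter. With a lowest value of 5.11, no member lay near the filter, and no gene with such a symbol lay below it.

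RNA came from shoots of 2-week-old Arabidopsis thaliana seedlings of cultivar Col-0, all of a single transgenic line (MYB112-IOE, line 1) in which estradiol induces overexpression of the transcription factor MYB112. All seedlings were grown at 22 °C with light of 100 µmol per square metre per second, and were in liquid medium for 16 h before treatment. Seedlings were treated with 10 µM β-estradiol or with DMSO, the solvent control, and were harvested after 3 h (1 Affymetrix ATH1 array per treatment) or 5 h (2 arrays per treatment). Both treatments carried the construct. Estradiol-treated plants without it were not analysed here, so estradiol and MYB112 induction cannot be told apart. The design aims at early, possibly direct targets of that factor.

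Autophagy delivers cytoplasm and organelles to the vacuole in membrane vesicles, and in plants it recycles nutrients during starvation and leaf senescence. ATG8 proteins are ubiquitin-like and are attached to a lipid of the growing membrane, where they recruit cargo receptors. ATG7 activates ATG8 and ATG3, an E2-like enzyme, transfers it to the lipid. In Arabidopsis, ATG8A to ATG8D and ATG8E to ATG8G form related subgroups, whereas ATG8H and ATG8I are more distant and end at the glycine that is joined to the lipid, so that they need no trimming by ATG4.

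The arrays of one time and replicate number shared a lowest value, 2.1, 2.14 or 2.16, and correlated at 0.994 to 0.998 over probe sets. Across pairs the correlations were 0.957 to 0.968. Each pair was read as having its own normalization, so differences between estradiol and DMSO arrays were taken within pairs and levels were not ranked between times. No probe set is named MYB112 in the annotations used here. The one probe set that passed the test at 5 h has no named gene and was at 10.8, 12.87 and 13.3 with estradiol and at 2.59, 2.7 and 3.27 with DMSO. Of 6 shoot markers 2 had a named probe set, LHCB4.1 of light harvesting and RCA of carbon fixation, and were at 12.72 to 13.84. Of 7 root markers 2 had one, the root hair genes EXPA7 and EXPA18, which were at 2.1 to 2.96 and equal between treatments in every pair.

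The levels of the 8 genes on every array are shown in the plot of levels by pair. No difference between estradiol and DMSO exceeded 0.70 on the log2 scale in any pair, and none passed the test. Measured per sample of whole shoots, fewer cells of a type and less RNA per cell cannot be told apart. Signals of different probe sets are not compared as levels, since each has its own probes.

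**Figure D1:**
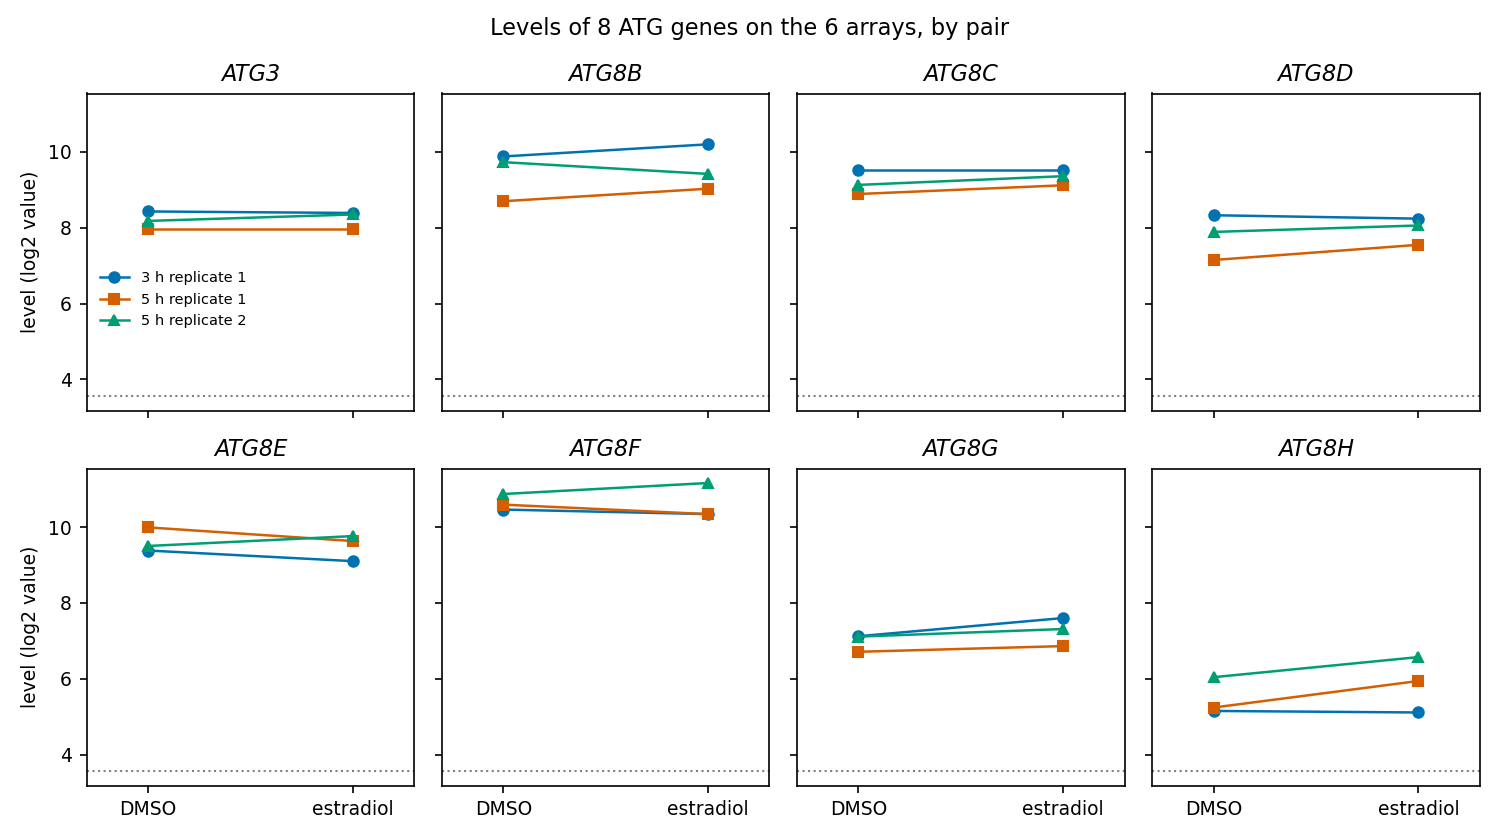
Log2 level (vertical axis) of each ATG gene with DMSO and with estradiol (horizontal axis); each line joins the arrays of 1 pair, and the dotted line is the filter at 3.56. Most lines are nearly flat, and ATG8H has its steepest lines in the 5 h pairs, from 5.24 to 5.94 and from 6.04 to 6.57; panels share an axis but levels are not compared between genes.

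ATG3 (locus AT5G61500, probe set 247542_at), the gene of the conjugating enzyme, had the smallest spread between pairs. At 3 h it was at 8.39 with estradiol and 8.43 with DMSO. In replicate 1 of the later time it was at 7.97 with both treatments, and in replicate 2 at 8.35 with estradiol and 8.18 with DMSO. Arrays of the treatments overlapped, and the mean difference of estradiol minus DMSO was 0.04 (SD 0.11, n = 3 pairs).

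Among the genes of the ATG8A to ATG8D subgroup, ATG8B (AT4G04620, 255283_at) was higher with estradiol in the first pairs of both times and lower in 5 h replicate 2. At 3 h ATG8B was at 10.2 with estradiol and 9.88 with DMSO, in 5 h replicate 1 at 9.03 and 8.7, and in replicate 2 at 9.42 and 9.73. Its differences of 0.32, 0.33 and −0.31 averaged 0.11 (SD 0.37, n = 3 pairs), less than their spread. ATG8C (AT1G62040, 264285_at) was at 9.52 with both treatments at 3 h, at 9.12 with estradiol and 8.89 with DMSO in 5 h replicate 1, and at 9.36 and 9.13 in replicate 2. Its difference was thus 0.23 in both 5 h pairs and 0 at 3 h. For ATG8D (AT2G05630, 265510_at) the values were 8.24 with estradiol and 8.33 with DMSO at 3 h, 7.55 and 7.15 in 5 h replicate 1, and 8.06 and 7.89 in replicate 2. ATG8D differed by −0.09, 0.40 and 0.17, with a mean of 0.16 (SD 0.25, n = 3 pairs), again within the spread of the pairs.

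In the ATG8E to ATG8G subgroup, ATG8E (AT2G45170, 266106_at) and ATG8F (AT4G16520, 245391_at) were lower with estradiol at 3 h and in 5 h replicate 1, and higher in replicate 2. ATG8E was at 9.1 with estradiol and 9.38 with DMSO at 3 h, at 9.63 and 9.99 in replicate 1, and at 9.76 and 9.5 in replicate 2. ATG8F was at 10.34 and 10.46 at 3 h, at 10.34 and 10.59 in replicate 1, and at 11.16 and 10.87 in replicate 2. Their mean differences, −0.13 (SD 0.34, n = 3 pairs) for ATG8E and −0.03 (SD 0.28, n = 3 pairs) for ATG8F, were smaller than the spread. ATG8G (AT3G60640, 251393_at) was the single member above 0 in all 3 pairs, as were 12.1% of the 14520 probe sets. After quantile normalization or median centring ATG8C was above 0 in all 3 as well, at 0.027 or 0.01 at 3 h. ATG8G was at 7.6 with estradiol and 7.12 with DMSO at 3 h, at 6.86 and 6.71 in 5 h replicate 1, and at 7.31 and 7.11 in replicate 2. Its differences of 0.48, 0.15 and 0.20 averaged 0.28 (SD 0.18, n = 3 pairs), with the largest at 3 h, where 5.85% of probe sets were at least as far from 0.

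ATG8H (AT3G06420, 258880_at), of the distant subgroup, had the largest differences among the members at 5 h. Its values were 5.94 with estradiol and 5.24 with DMSO in replicate 1 and 6.57 and 6.04 in replicate 2, whereas at 3 h they were 5.11 and 5.15. Estradiol arrays were higher in both 5 h pairs, by 0.70 and 0.53 (1.62-fold and 1.44-fold), and lower by 0.04 at 3 h. The groups overlapped across pairs, since the DMSO values themselves were 5.24 and 6.04. The medians of those DMSO arrays over all probe sets, 5.4 in replicate 1 and 5.12 in replicate 2, ran the other way. The source of this offset between pairs was not tested. Of all probe sets, 3.95% in replicate 1 and 13.5% in replicate 2 were at least as far from 0. Such shares run over all probe sets above the filter and were not matched for level. ATG8H in replicate 1 was also the only case among the 8 genes and 3 pairs of a difference of 1.5-fold or more, which 3.67% of probe sets reached upwards in that pair and 2.42% downwards. The shares were 1.2% and 2.07% in the 3 h pair and 3.93% and 6.87% in replicate 2, each with 0 members. After quantile normalization or median centring ATG8H in 5 h replicate 2 was at 0.588 or 0.61, past 1.5-fold as well.

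**Figure D2:**
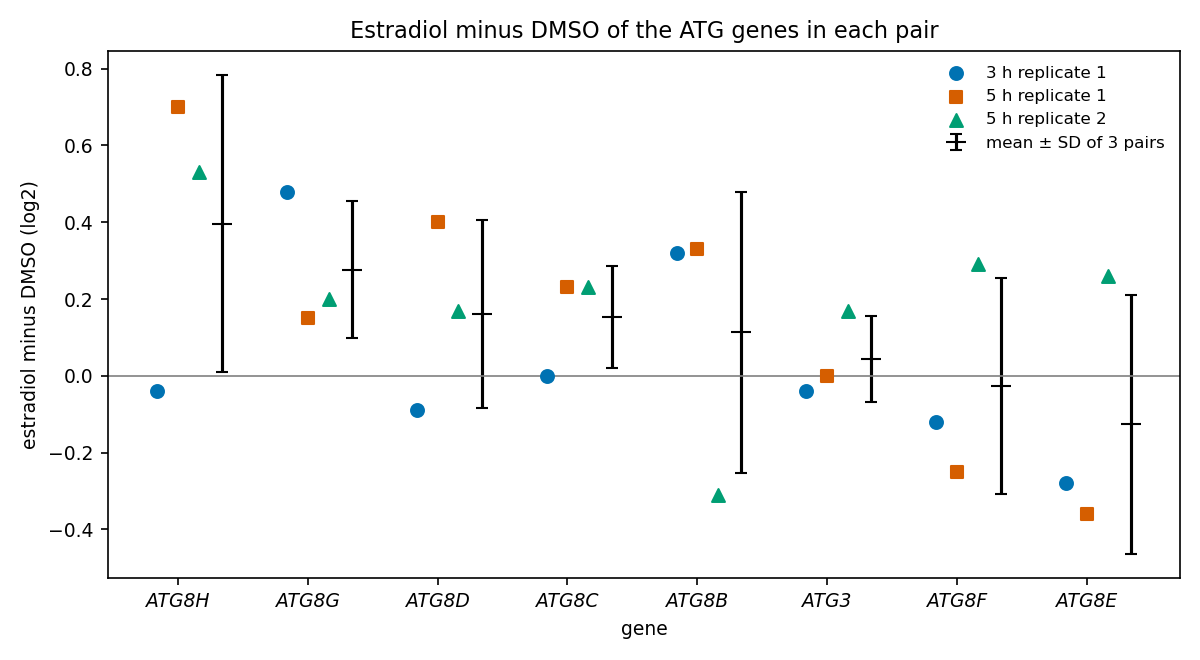
Estradiol minus DMSO on the log2 scale (vertical axis) for each gene, ordered by the mean over 3 pairs (horizontal axis); coloured symbols are single pairs and black bars the mean ± SD of the 3 pairs. ATG8H is highest on average at 0.40, its 3 h value lies at −0.04, ATG8G lies above 0 in all pairs, and ATG8B, ATG8E and ATG8F have 5 h pairs on either side of 0.

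Seen over the members, the balance of higher and lower values differed between pairs. At 3 h, 2 of 8 were higher, 5 lower and 1 equal, with a median of −0.04, where 35.7% of all probe sets were higher, 50.1% lower and the median was −0.01. That split rests on small values, and after quantile normalization 4 members were higher and 4 lower at 3 h. In 5 h replicate 1, 5 were higher, 2 lower and 1 equal, with a median of 0.19, beside 47.7% higher, 39.3% lower and a median of 0 over all probe sets. In 5 h replicate 2, 7 were higher and 1 lower, with a median of 0.215, beside 40.8% higher, 55.3% lower and a median of −0.04. The balance depended on which genes were counted: over all 16 loci of the ATG list above the filter, whatever their annotated name, 7 were higher and 8 lower in 5 h replicate 1 (median −0.005), and 10 were higher and 6 lower in replicate 2 (median 0.135). The 4 genes above 0 in both 5 h pairs were ATG8C, ATG8D, ATG8G and ATG8H (24.2% of all probe sets), 0 were below 0 in both (27%), and ATG8B, ATG8E and ATG8F had opposite signs in them (33.6%). Of the former, ATG8D and ATG8H were below 0 at 3 h, a pattern held by 9.16% of probe sets, whereas 7.59% were above 0 at 3 h and below 0 in both later pairs. These counts describe 8 related genes on the same arrays and were not tested. At 5 h the treatment groups overlapped in 8 of 8 members, where 8.59% of probe sets lay without overlap higher and 9.82% lower with estradiol. This overlap sets arrays of different pairs side by side and so includes the offset between pairs.

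**Figure D3:**
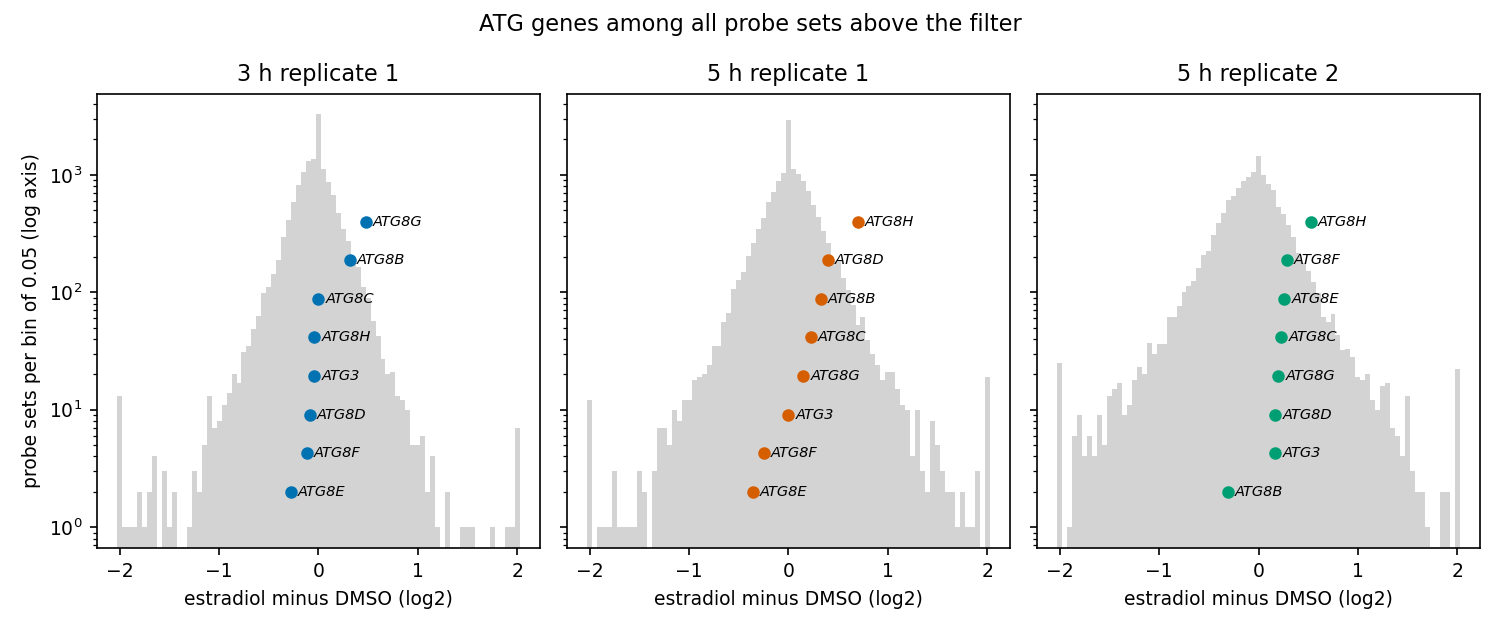
Distribution of estradiol minus DMSO (horizontal axis, log2) over 14520 probe sets above the filter in each pair, as grey bars counted on a log axis, with differences beyond 2 placed in the outermost bins. Coloured points mark the ATG genes, whose height has no meaning. All lie between −0.36 and 0.70. For the highest, ATG8H in 5 h replicate 1, 3.95% of probe sets were at least as far from 0.

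The comparison at 5 h, the replicated time, was fitted with limma over 14078 probe sets. Of the 8 members 0 passed in either direction (adjusted p = 1 for each), while among all probe sets 0.0071% rose and 0% fell. The single probe set that passed differed by 10.1 on the log2 scale, whereas the low-oxygen gene AT3G10040 (HRA1), at −2.215, did not pass. With so few arrays, 0 calls do not show a lack of response. None of the 8 reached an unadjusted p of 0.05, that is 0 against 1.15% of probe sets. ATG8H was 0.615 higher with estradiol (SE 0.44, 95% interval −0.57 to 1.80, n = 2 arrays per treatment). The estimate for ATG8D was 0.285 (SE 0.36), for ATG8C 0.23 (SE 0.19) and for ATG8G 0.175 (SE 0.29). ATG8B was at 0.01, ATG8F at 0.02, ATG3 at 0.085 and ATG8E at −0.05, with intervals that ran from −1.07 to 1.09 at the widest, so that for ATG8B a difference of about 2-fold in either direction lay inside the interval. The median over members was 0.13, beside −0.01 over all probe sets.

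With the pair as a block, which removes the offsets between pairs, the estimates were the same and the standard errors of all 8 members smaller. This blocked fit left 1 residual degree of freedom. ATG8H then had an SE of 0.13, an interval of 0.17 to 1.06 and an unadjusted p of 0.0236 (limma adjusted p = 0.58). ATG8C had an SE of 0.066 and an unadjusted p of 0.0497 (limma adjusted p = 0.58). These 2 of 8 members stand beside 8.29% of all probe sets at an unadjusted p under 0.05, and 0 members and 0% of probe sets passed after adjustment.

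Over both times, which asks for a difference shared by 3 h and 5 h, limma called 0 of 8 members (adjusted p = 1 for each), while 0.00689% of 14520 probe sets rose and 0% fell. ATG8H was at 0.40 (SE 0.34, n = 3 arrays per treatment), ATG8G at 0.28 (SE 0.21), and the lowest estimate was that of ATG8E at −0.13 (SE 0.16). The members' median was 0.13, beside −0.02 over all probe sets. At an unadjusted p under 0.05 there were 0 members (1.9% of probe sets), and with the pair as a block 0 as well (9.75%). The smallest unadjusted p was then that of ATG8G, 0.0623 (95% interval −0.02 to 0.58, limma adjusted p = 0.519).

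**Figure D4:**
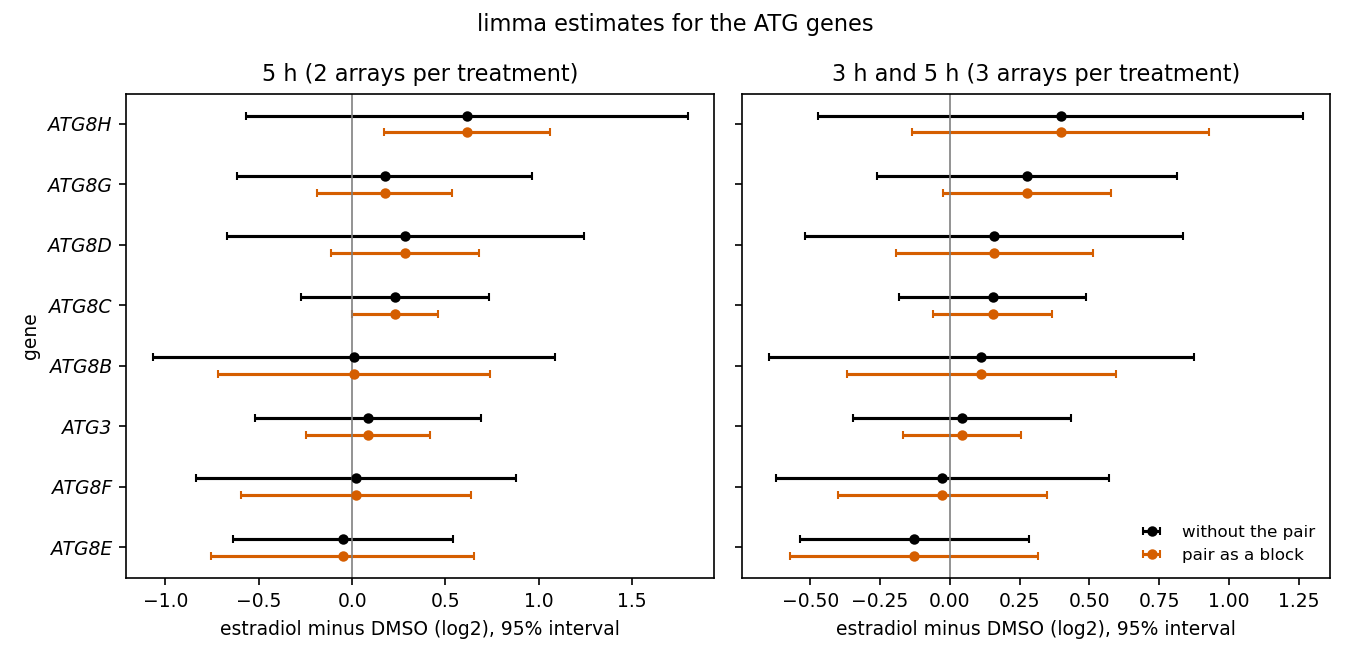
limma estimates of estradiol minus DMSO (horizontal axis, log2) with 95% intervals for each gene (vertical axis), at 5 h on the left and over both times on the right, without the pair (black) and with the pair as a block (orange). Of the 8 genes, ATG8H and ATG8C at 5 h have blocked intervals above 0, and no unblocked interval leaves 0 out.

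A contrast of the estradiol difference at 5 h with that at 3 h was fitted with all 4 groups, on the assumption that the unreplicated arrays vary as the replicated ones do. The difference at 5 h minus that at 3 h was 0.655 for ATG8H (SE 0.79), 0.375 for ATG8D (SE 0.62) and −0.31 for ATG8B (SE 0.70). Limma called 0 of 8 members and 0% of probe sets in either direction (adjusted p = 1 for each member), with 0 members at an unadjusted p under 0.05 (0.172% of probe sets). With the pair as a block 0 passed as well, 0 had an unadjusted p under 0.05 (2.93% of probe sets), and ATG8H had the smallest unadjusted p of the members, 0.0715 (limma adjusted p = 0.988).

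Other autophagy genes could be described only as far as the annotations name them. Of 36 ATG genes listed, 11 had a probe set under an ATG symbol or synonym, the 8 above and 3 more. APG8A (synonym ATG8A) differed by −0.05, 0.41 and −0.01 in the 3 h pair and replicates 1 and 2 at 5 h. APG8H, which has ATG8I among its synonyms and is not the gene listed as ATG8H, differed by 0.05, −0.26 and −0.02. For both genes the small difference in 5 h replicate 2 was above 0, at 0.022 each, after quantile normalization. AT5G66930 (ATG101), which encodes a subunit of the ATG1 kinase complex that starts autophagy, differed by −0.08, −0.14 and 0.30. None of the 3 passed in any fit (limma adjusted p = 1 for each without the pair term, and 0.66 to 0.87 at 5 h with the pair as a block).

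Few of the listed regulators, proteases and senescence genes around autophagy had a named probe set, and limma called 0 of those in all 3 comparisons. RAPTOR1, a partner of the TOR kinase that restrains autophagy, was the 1 gene of 8 TOR and SnRK1 entries with a named probe set and differed by 0, 0.01 and −0.59. Of 16 further autophagy-associated genes 0 had a named probe set. Among vacuolar proteases, which process or break down proteins in the vacuole, BETA-VPE differed by −0.15, −0.01 and −0.81 and GAMMA-VPE by −0.21, −0.14 and −0.69. Both were lower in all 3 pairs, as were 17.1% of probe sets, while ALPHA-VPE and DELTA-VPE were at 2.1 to 2.21 throughout. Of 14 senescence and sugar starvation genes 3 had a named probe set. WRKY53, a transcription factor of early senescence, differed by 0.17, 0.55 and 0.35, WRKY6 by 0.12, 0.10 and 0.66, and SAG101 by 0, 0.21 and 0.05. The low-oxygen genes AT3G10040 (HRA1) and PDC2 were at −2.64, −1.73 and −2.70 and at −0.36, −0.60 and −0.81, also without passing. Without the pair term AT3G10040 was the one gene of these lists at an unadjusted p under 0.05 (at 5 h and over both times), and with the pair as a block AT3G10040 and PDC2 were below it in both fits and WRKY53 over both times (limma adjusted p = 0.50 to 0.58).

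Replicate 2 at 5 h, in which 7 of 8 members were higher, also held the largest differences of the stomatal markers. Differences in that pair were more widely spread over all probe sets (SD 0.41) than in replicate 1 (SD 0.33) or at 3 h (SD 0.26). Of 5 stomatal and trichome markers 4 had a named probe set, and their summed level differed by 0.0049 at 3 h, −0.20 in replicate 1 and −0.93 in replicate 2 on the log2 scale. The summed level was 7.08, 7.03 and 4.86 with estradiol and 7.08, 7.24 and 5.79 with DMSO. SPCH and FMA, regulators of the stomatal lineage, were at −1.29 and −1.17 in replicate 2, where their estradiol values of 3.17 and 3.41 lay under the filter of 3.56, so that these sizes and that of the sum are uncertain, while MUTE and the trichome gene TRY stayed at 2.7 or less. Their part in the ATG values of that pair was not tested.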

How the data were processed

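Affymetrix ATH1 arrays of 6 shoot RNA samples were analysed. The values are those of the authors' deposited table, a log2 level for each probe set on each array. The submitters' processing notes name GCRMA and RMA but neither a version nor which was applied to what. No source used here states the log base, and base 2 was read from the range of the values. Detection above background is not recorded in the table, and the few arrays limit the precision. Since the labels do not say whether replicates came from separate flasks, p-values measure only the spread between these samples, which may be technical.

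After 64 control probe sets were left out, 22746 remained, of which 13513 had 1 gene in the platform annotation, 503 several and 8730 none listed. Names were updated through gene numbers to the RefSeq table of TAIR10.1 (13436 matched, all 8 ATG genes among them). No build is named for the arrays, so no coordinates are given. Listed genes that the annotations do not name entered only the summary over 16 ATG loci.

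Two-sided tests were run with limma 3.58.1 under R 4.3.3 (lmFit, then eBayes with trend). They covered probe sets at or above 3.56 in at least 2 arrays of the fit. Benjamini-Hochberg adjustment ran over all of these, with a threshold of 0.05. The fits were also tested on simulated data. Noise there had a fixed size not estimated from these arrays, so that test does not show how sensitive the fits were here. For the unblocked fits the simulated arrays had no offset between pairs, so that test does not cover such offsets. Without the pair term the residual degrees of freedom were 2 at 5 h, 3 over both times with time as a covariate, and 2 for the interaction. With the pair as a block they were 1, 2 and 1 in the same order. The 3 h pair has 1 array per treatment and no test of its own. Same-numbered arrays deviated together from their treatment means (correlations of 0.94, 0.927 and 0.907 in the 3 pairs). Those means ran over both times, so the correlations include the difference between 3 h and 5 h and cannot show pairing of the 5 h replicates. Since each pair was read as having its own normalization, the fit with the pair as a block is given beside the main one.

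The ATG genes, the lists and the rule for named genes were chosen with earlier results of these data known. The rule names all ATG genes and, of each other list, up to 3 members with the largest mean difference; marker and low-level genes beyond it were named after their values were seen. Alternatives were the pair block, other filters, quantile normalization, median centring, no trend, other choices of members, and each array left out.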

Additional observations from a re-analysis of the deposited data

Results flagged for a closer look

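ATG8H and ATG8D were lower with estradiol at 3 h, by small amounts (−0.04 and −0.09), and higher in both 5 h pairs, by 0.70 and 0.53 for ATG8H and by 0.40 and 0.17 for ATG8D. This change of sign is what singled them out, and 9.16% of all probe sets had the same pattern. The estradiol difference at 5 h minus that at 3 h was 0.655 for ATG8H (SE 0.79, 95% interval −1.52 to 2.83) and 0.375 for ATG8D (SE 0.62, 95% interval −1.33 to 2.08), with a limma adjusted p of 1 for each. The 3 h value rests on 1 array per treatment.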

How the results depend on the processing

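The count of ATG genes past the threshold was 0 in each of the 3 comparisons and 0 under every alternative run, the replicate block included, which changed no call of a member. Since hardly any probe set passed in these fits, that count does not show a lack of response. The call of the one probe set that passed at 5 h and over both times was lost with the block, without a filter, after quantile normalization and without the trend, at 5 h also after median centring, and in 2 of 4 left-out arrays at 5 h and 5 of 6 over both times. The pair medians moved by less than their SD of 0.14 under quantile normalization and median centring, and with the 11 genes of an ATG symbol or synonym. With 16 loci entered as ATG genes whatever their annotated name, the median in replicate 1 at 5 h was −0.005 in place of 0.19. Each ATG gene has 1 probe set, so averaging probe sets could not alter its values. An interaction without a 3 h array could not be fitted.

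Leaving out 1 array unbalances pairs that were read as normalized separately, and so an offset between pairs shifts unblocked estimates by construction. The members' median ran from −0.0775 (without the estradiol array of replicate 2) to 0.375 (without that of replicate 1) at 5 h, from −0.0186 to 0.268 over both times and from 0.0125 to 0.333 for 5 h minus 3 h. At 5 h the sign turned for ATG3 (−0.105 to 0.275), ATG8B (−0.505 to 0.525), ATG8D (−0.085 to 0.655), ATG8E (−0.295 to 0.195), ATG8F (−0.39 to 0.43) and ATG8G (−0.05 to 0.40), but not for ATG8C (0.11 to 0.35) or ATG8H (0.215 to 1.01). Over both times it turned for ATG3 (−0.0771 to 0.14), ATG8B (−0.151 to 0.437), ATG8D (−0.0871 to 0.336) and ATG8F (−0.274 to 0.194). For 5 h minus 3 h it turned for ATG3 (−0.065 to 0.315), ATG8B (−0.825 to 0.205), ATG8E (−0.015 to 0.475) and ATG8F (−0.27 to 0.55).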
